A study of Macaca mulatta with 5 samples.

Results

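The genes described here encode the machinery of oxidative phosphorylation and the SLC25 carriers, most of which sit in the inner mitochondrial membrane. They were chosen by symbol from the platform annotation (names starting with NDUF, SDH, UQCR, COX with a digit, ATP5 or SLC25A, and CYC1), each represented by its brightest probe set over the 5 arrays. This gave 108 members of 14132 named genes: 72 of oxidative phosphorylation and 36 carriers. Complexes I to IV pass electrons from NADH and succinate to oxygen and, except for complex II, pump protons, and ATP synthase uses the proton gradient to make ATP. The carriers exchange ADP, ATP, phosphate, amino acids, carboxylates and cofactors across the membrane. Stem cells in culture are known to draw much of their ATP from glycolysis and neurons to depend heavily on oxidative phosphorylation.

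Affymetrix rhesus arrays measured messenger RNA while rhesus macaque embryonic stem cells, line 366.4, were led through 5 stages towards serotonin neurons. Every stage came from that line, which was derived from an embryo and had been described as able to form neural cells. The stages were stem cells grown on a layer of mouse embryonic fibroblasts and taken at passage 13 (ESC), embryoid bodies taken after 6 to 8 days (EB), neurospheres kept for 7 to 9 days with N2 supplement (N1), cells expanded for 7 to 9 days with added FGF4 (N2), and cells left to mature, FGF4 removed, in wells with reduced growth factors (N3). N2 and N3 are labelled as serotonin neurons. There was 1 array per stage, so no value has a replicate, no difference could be tested, and the number of arrays limits the precision.

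Signals are scanner intensities scaled to a 2% trimmed mean of 500 on each array, with a floor of 100 below which a signal was not read as a level. A comparison took in the members that exceeded the floor on 1 or both of its arrays (the measured members). Where the other array was at the floor the ratio is a bound, written "at least". Levels were compared between stages within a probe set, never between probe sets. Of the members, 91 lay above the floor on all 5 arrays, 12 on some and 5 on none. Those 5 were SLC25A2, SLC25A31, SLC25A41, SLC25A42 and SLC25A48, which were therefore not measured at any stage. Among them SLC25A31 encodes the adenine nucleotide carrier best known from the germ line.

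The stage labels were set against marker genes. POU5F1, a stem cell transcription factor, read 28621 (ESC), 906 (EB), 249 (N1), 80.3 (N2) and 14.7 (N3), and 4 of 5 stem cell markers were at least 2-fold lower in N3 than in ESC. The exception was NANOG, at 2155 in N3 against 1047 in ESC. Of 8 neuronal markers, 6 were at least 2-fold higher in N3 than in ESC (17.2% of all genes). Among them was DCX, a protein of migrating young neurons, at 10607 in N3 against 186 in ESC. The exceptions were SYT1, lower in N3 at 2984.5 against 4177 in ESC, and ELAVL3, above the floor in N3 alone at 124. TPH2, the enzyme that starts serotonin synthesis in neurons, lay below the floor at every stage (5.03 to 16.2), and FEV, a transcription factor of serotonin neurons, read 66.0 to 121. Of the other serotonin markers, GATA3, a transcription factor with roles in several tissues, read 895 in N3 against 348 in ESC and was highest in EB at 3912. SLC18A2, which loads monoamines into vesicles, read 150 in N3 against 86.9 in ESC, GATA2 read 107 in N3 against 108 in ESC, and HTR1A, a serotonin receptor, lay below the floor throughout. The serotonin genes DDC, MAOB and SLC6A4 are not analysed here. Of 14 skeletal and heart muscle markers, 12 were at least 2-fold higher in N3 than in ESC, and their summed signal was 12341 (ESC), 29523 (EB), 19104 (N1), 19503 (N2) and 62788 (N3). ACTC1, cardiac actin, made up 10670 of the ESC sum, and without it, a step chosen after seeing the values, the sums were 1671 (ESC), 20163 (EB), 13544 (N1), 11420 (N2) and 42454 (N3). The summed signal of 6 liver-like endoderm markers was 2015 (ESC), 64310 (EB), 54999 (N1), 16313 (N2) and 3245 (N3).

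The feeder layer makes fibroblast genes a further check. Of 8 fibroblast and matrix markers, 4 were at least 2-fold higher in N3 than in ESC (COL1A1, DCN, FBN1 and LUM) and 3 at least 2-fold lower. TAGLN, an actin-binding protein, read 7431 in N3 against 35825 in ESC, THY1, a surface protein, 2044 in N3 against 5443 in ESC, and COL3A1, a collagen, 178 in N3 against 533 in ESC. The 8 had a summed signal of 50235 (ESC), 37382 (EB), 41859 (N1), 57298 (N2) and 65040 (N3). DCN and LUM lay below the floor in ESC. The part of feeder cells in signals that were highest in ESC was not tested. In such bulk samples, fewer cells of a type and less RNA per cell cannot be told apart.

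The arrays also differed in RNA quality as the control probe sets show it. The 3' to 5' signal ratio of actin, which rises as RNA breaks or is copied incompletely, was 1.73 (ESC), 15.2 (EB), 5.43 (N1), 25.2 (N2) and 8.63 (N3). That of GAPDH was 7.1 in N2 and between 1.69 and 2.78 at the other stages. EB and N2 thus had the highest actin ratios. Of the 91 members above the floor throughout, 11 (12.1%) dipped in both EB and N2 relative to their neighbouring stages, where 12.3% of all such genes did so. The part of RNA quality in the results that follow was not tested.

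Over the whole course, the genes of the respiratory chain and ATP synthase tended to be lower in N3 than in ESC. Against ESC, 25 of 102 measured members (24.5%) were at least 2-fold lower in N3, where 16.4% of all measured genes were, and 7 (6.86%) were at least 2-fold higher, where 17.2% of all measured genes were. The median log2 ratio of the members was -0.42 in N3 over ESC, beside -0.13 for all measured genes. In all, 76 members (74.5%) had a ratio below 0, where 56% of all genes had. This picture depends on the probe set. On the next brightest probe set, an alternative chosen after seeing the data that covers 43 members, the member median was -0.06 beside -0.26 for all such genes, so the members then lay higher. Among genes above the floor on all 5 arrays, another such alternative, 22 of 91 members were at least 2-fold lower in N3 and 6 at least 2-fold higher, where 17% and 16% of such genes were.

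Most members moved little. Of the 91, 51 (56%) kept within a 2-fold range over the 5 stages, where 45% of all genes above the floor throughout did. The stage with the highest signal was ESC for 39 members (42.9%; 33.7% of all genes), EB for 23 (25.3%; 22.5%), N1 for 15 (16.5%; 10.6%), N2 for 7 (7.69%; 15.1%) and N3 for 7 (7.69%; 18.2%). The lowest signal lay in N3 for 37 members (40.7%; 26.9% of all genes), in N2 for 32 (35.2%; 18.5%), in ESC for 17 (18.7%; 30.8%), in N1 for 3 (3.3%; 11%) and in EB for 2 (2.2%; 12.7%). A signal lower at each of the 4 steps was seen in 15 members (16.5%), where 6.56% of all genes showed it. These 15 were subunits or factors of complex I (NDUFB4, NDUFV2, NDUFS7, NDUFAF6 and NDUFS6), of complex III (UQCR11) and of complex IV (COX5A, COX17 and COX20), the ATP synthase genes ATP5MG, ATP5MC3 and ATP5IF1, and the carriers SLC25A38, SLC25A5 and SLC25A21. These courses are those of the brightest probe set. On its other probe set NDUFB4 rose at each step, from 227 in ESC to 739 in N3. COX5A, COX17, NDUFS6 and UQCR11 were also higher in N3 than in ESC on the next brightest. There ATP5IF1, COX20, NDUFS7 and NDUFV2 were lower in N3. UQCRB was the 1 member higher at each step on the brightest probe set, where 4.42% of all genes were.

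**Figure D1:**
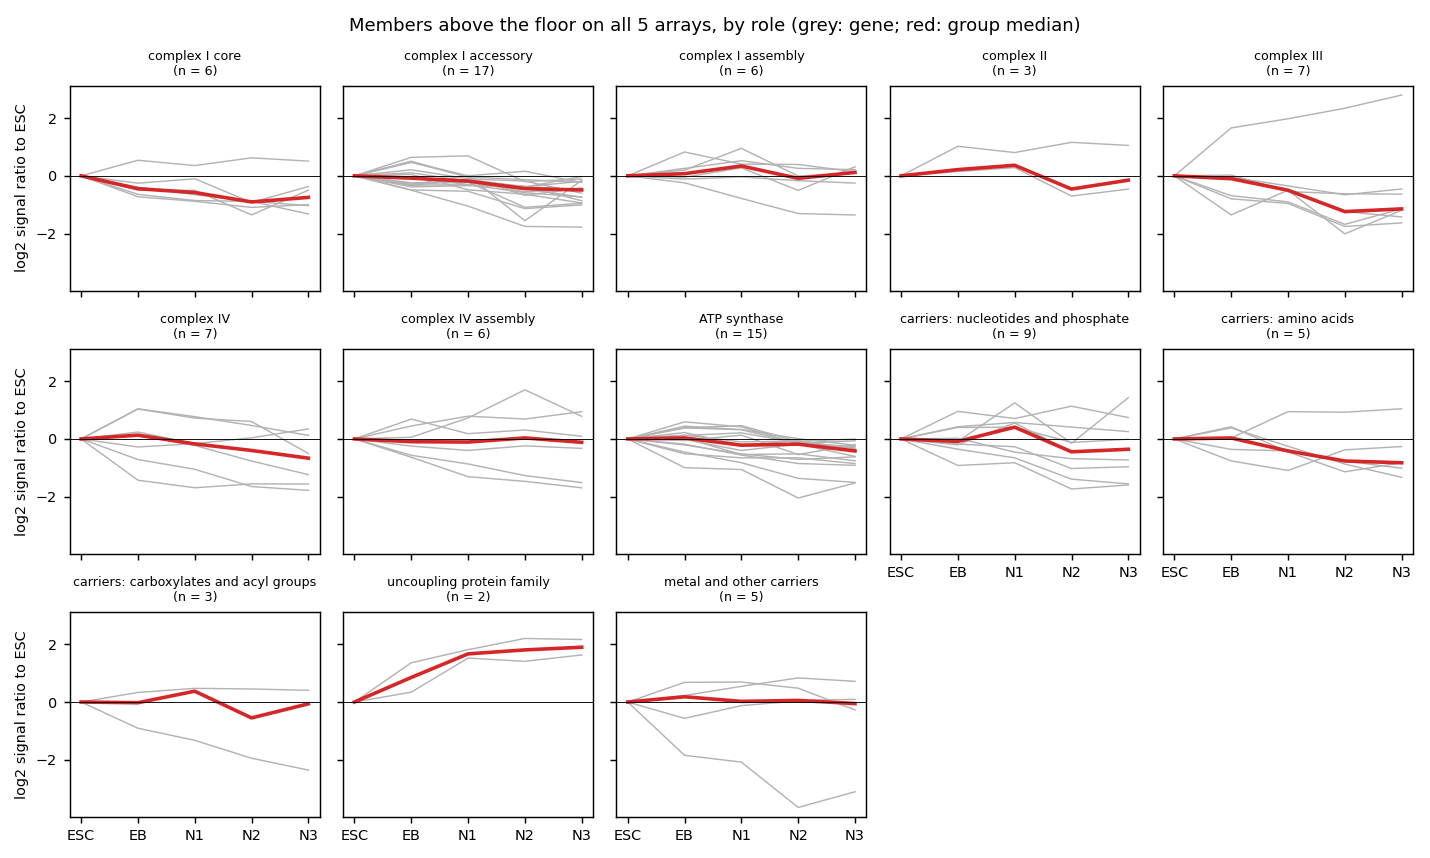
Log2 signal ratio to ESC (vertical axis) at each stage (horizontal axis, 1 array each) for the members above the floor on all 5 arrays, in 13 panels by role, with each gene in grey and the group median in red. The complex III median lies lowest at the end of the course among the respiratory complexes, and both genes of the uncoupling protein family lie above 0 at every stage after ESC.

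Complex I, NADH dehydrogenase, takes electrons from NADH and is the largest respiratory complex. On the brightest probe set, all 18 measured accessory subunits had a lower signal in N3 than in ESC. Their median log2 ratio was -0.54, with a range of -1.78 to -0.02, and 3 of them were at least 2-fold lower. Among all measured genes, 56% had a lower signal in N3 and 16.4% were at least 2-fold lower. Under the other scalings between arrays, 14 to 18 of the 18 were lower in N3, and the median stayed below 0. On the next brightest probe set, NDUFB4 (1.70), NDUFB7 (at least 1.19), NDUFS6 (0.56) and NDUFV3 (at least 0.35) were higher in N3. On theirs, NDUFA2, NDUFA6, NDUFA10, NDUFB6 and NDUFB10 were lower. Of the 6 core subunits, which carry the redox centres, 5 had a lower signal in N3 and 2 were at least 2-fold lower (1 under 3 of the 4 other scalings), with a median of -0.75. The 6 assembly factors had a median of 0.12, which was -0.02 under quantile normalisation, and 1 was at least 2-fold lower.

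NDUFS6, an accessory subunit beside an iron-sulphur centre, read 7154 (ESC), 5068 (EB), 3460 (N1), 2126 (N2) and 2088 (N3), 3.43-fold lower in N3 than in ESC, though its other probe sets were higher in N3. NDUFV3, an accessory subunit of the NADH-binding arm, read 337 (ESC), 113 (EB), 114 (N1), 64.8 (N2) and 82.0 (N3), at least 3.37-fold lower in N3 than in ESC. Its other probe set was higher in N3, at 127 against 10.9 in ESC. Both genes were highest in ESC on the brightest probe set. NDUFS7, a core subunit with an iron-sulphur centre near the ubiquinone site, read 5886 (ESC), 3774 (EB), 3256 (N1), 3187 (N2) and 2357 (N3). It was 2.50-fold lower in N3 than in ESC, and the core subunit NDUFV2 was 2.04-fold lower.

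The largest core subunit gene, NDUFS1, went the other way, at 5647 in N3 against 3964 in ESC, a log2 ratio of 0.51. NDUFV1, which binds NADH, read 2033 (ESC), 1444 (EB), 1435 (N1), 797 (N2) and 1442 (N3). It was lowest in N2 and differed by less than 2-fold between N3 and ESC. NDUFA13, an accessory subunit first known as a regulator of cell death, showed a dip in N2 alone: 6216 (ESC), 5054 (EB), 6279 (N1), 2114 (N2) and 5571 (N3). Among the steadiest members on the brightest probe set were the accessory subunits NDUFB10 and NDUFC1, with a highest over lowest stage of 1.30 and 1.40. The assembly factor NDUFAF2, with 1.19, was another. NDUFB10 has a further probe set that read 80.8 in N3, below the floor, against 237 in ESC. The assembly factor NDUFAF6 was 2.56-fold lower in N3 than in ESC, at 498 in N3 against 1275 in ESC.

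Complex II, succinate dehydrogenase, links the citric acid cycle to the chain. Its 3 measured subunits did not share a direction. SDHA, the flavin-bearing catalytic subunit, read 1982 (ESC), 4030 (EB), 3468 (N1), 4430 (N2) and 4114 (N3), so that ESC was the low stage and N3 was 2.08-fold higher. SDHB, the iron-sulphur subunit, read 1970 in N3 against 2185 in ESC, and SDHC, a membrane anchor, 1221 in N3 against 1679 in ESC. Both were lowest in N2, at 1592 for SDHB and 1034 for SDHC. SDHD was not analysed here.

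Complex III, the cytochrome bc1 complex, passes electrons from ubiquinol to cytochrome c. Of its 7 measured subunits, 4 were at least 2-fold lower in N3 than in ESC (16.4% of all genes). At least 2-fold higher was 1 (17.2% of all genes), and the median log2 ratio was -1.14. The count of lower ones was 2 to 4 under the other scalings, and the median stayed below -0.89. UQCRFS1, the Rieske iron-sulphur protein, read 6628 (ESC), 3823 (EB), 3418 (N1), 1967 (N2) and 2143 (N3), 3.09-fold lower in N3. The core proteins UQCRC1 and UQCRC2 were 2.21-fold and 2.29-fold lower in N3, and the small subunit UQCR11 2.68-fold lower on the brightest probe set (196 in N3 against 165 in ESC on the other). UQCRC2 read 4517 (ESC), 1770 (EB), 3199 (N1), 1123 (N2) and 1977 (N3), with its low points in EB and N2. CYC1, cytochrome c1, was at 4580 in N3 against 7106 in ESC, less than 2-fold apart.

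UQCRB, which binds ubiquinone, was the exception: 350 (ESC), 1105 (EB), 1377 (N1), 1772 (N2) and 2434 (N3), 6.96-fold higher in N3 than in ESC. Its other 3 probe sets had log2 ratios in N3 over ESC of 0.58, -1.65 and at least 0.50, so that 3 of the 4 were higher in N3. Taking the median signal of the 4 at each stage, which mixes probe sets of different brightness, gave -0.36.

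Complex IV, cytochrome c oxidase, hands electrons to oxygen, and several of its subunits have isoforms known from particular tissues. Of 10 measured subunit genes, 3 were at least 2-fold lower in N3 than in ESC (16.4% of all genes). None was at least 2-fold higher (17.2% of all genes), and the median log2 ratio was -0.40. COX5A, which is present in all tissues, read 15111 (ESC), 9223 (EB), 7297 (N1), 4823 (N2) and 4398 (N3), 3.44-fold lower in N3, though its other probe sets were higher in N3. COX8A, a small membrane subunit, was 2.95-fold lower in N3, with most of the difference already present in EB (2523 in EB against 6792 in ESC). NDUFA4, now counted as a subunit of this complex, read 9192 (ESC), 10063 (EB), 7853 (N1), 5411 (N2) and 3903 (N3), 2.35-fold lower in N3 than in ESC.

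The isoform genes gave a mixed record. COX7A1, the heart and muscle isoform, read 1396 (ESC), 2875 (EB), 2382 (N1), 1929 (N2) and 1520 (N3), highest in EB and 2.06-fold higher there than in ESC. COX7A2, its counterpart in other tissues, read 4230 in N3 against 3329 in ESC on its brightest probe set, where N3 was highest. The other COX7A2 probe set went the other way, at 539 in N3 against 1039 in ESC. COX6A2, the other muscle isoform, stayed near the floor at 73.1 to 117, and N3 had the highest value. These are to be read beside the muscle markers. MYH3, an embryonic myosin, read 14054 in N3 against 38.3 in ESC, while MYH6, a heart myosin, was highest in EB at 2498 against 14.1 in ESC. The part of muscle cells in the COX7A1 signal was not tested.

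COX4I2, the lung isoform that responds to low oxygen, read 102 to 129 at 4 stages and 20.1 in N2. NDUFA4L2, a hypoxia-induced relative of NDUFA4, read 123 (ESC), 20.1 (EB), 18.9 (N1), 92.8 (N2) and 171 (N3), above the floor in ESC and N3 alone. The highest reporter or tag control probe set read 189.9 in ESC, above NDUFA4L2 there. ADM, a hypoxia-induced peptide from the list of glycolysis and hypoxia genes set beside the members, read 2541 (ESC), 550 (EB), 364 (N1), 1037 (N2) and 2269 (N3). The 13 measured genes of that list did not share this course. In EB against ESC, 9 were lower (53.2% of all genes) and 4 higher, among them SLC2A1 at 13102 in EB against 4235 in ESC. The part of low oxygen in these signals was not tested. COX7B, a small subunit, read 9601 (ESC), 19700 (EB), 15850 (N1), 14577 (N2) and 6771 (N3), high at the 3 middle stages. COX4I1 and COX6A1 were not analysed here as genes of their own.

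Of the 7 measured complex IV assembly factors, 3 were at least 2-fold lower in N3 than in ESC (16.4% of all genes). COX17, a copper chaperone, read 1227 in N3 against 3495 in ESC, 2.85-fold lower (284 in N3 against 202 in ESC on its other probe set), and COX20, a chaperone of a catalytic subunit, 1815 in N3 against 5866 in ESC, 3.23-fold lower. COX15, which makes heme A, read 295 in ESC and 53.2 to 102 at the later stages, at or near the floor. COX10, which acts before COX15 in the same pathway, was among the steadiest members on its brightest probe set (highest over lowest stage 1.32). Its other probe set read 2939 (ESC), 807 (EB), 1218 (N1), 485 (N2) and 1550 (N3). COX19 and COX18 had log2 ratios of 0.94 and 0.78 in N3 over ESC, below the 2-fold threshold.

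ATP synthase makes ATP with a rotating ring of c subunits and a catalytic head. On the brightest probe set, all 15 measured genes had a lower signal in N3 than in ESC. Their median log2 ratio was -0.42, and 2 were at least 2-fold lower. Among all measured genes, 56% had a lower signal in N3 and 16.4% were at least 2-fold lower. Under the other scalings 11 to 15 of the 15 were lower in N3, and the median stayed below 0. On the next brightest probe set, ATP5F1E (3.74), ATP5F1B (1.31), ATP5G1 (at least 0.60) and ATP5F1C (at least 0.25) were higher in N3. On theirs, ATP5F1D, ATP5IF1, ATP5MC1, ATP5MJ and ATP5PO were lower. ATP5F1B, the catalytic beta subunit, read 17558 (ESC), 8815 (EB), 8435 (N1), 4255 (N2) and 6101 (N3), 2.88-fold lower in N3, though its next probe set was higher in N3. ATP5MC3, which encodes a c-ring subunit, read 21637 (ESC), 15783 (EB), 12228 (N1), 8407 (N2) and 7622 (N3), 2.84-fold lower.

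The same c subunit protein is made from other genes too. ATP5MC1 and ATP5MC2 were 1.69-fold and 1.54-fold lower in N3 than in ESC. A further locus annotated as ATP5G1, an older name of ATP5MC1, was 1.33-fold lower on its brightest probe set. Its other probe set was higher in N3, at 152 against 65.6 in ESC. The inhibitor gene ATP5IF1, whose product stops the enzyme from running backwards, read 3093 in N3 against 5590 in ESC, 1.81-fold lower. ATP5PO, a stalk subunit, was level at 10031 in N3 against 10050 in ESC. ATP5F1A, the alpha subunit gene, was not analysed here.

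**Figure D2:**
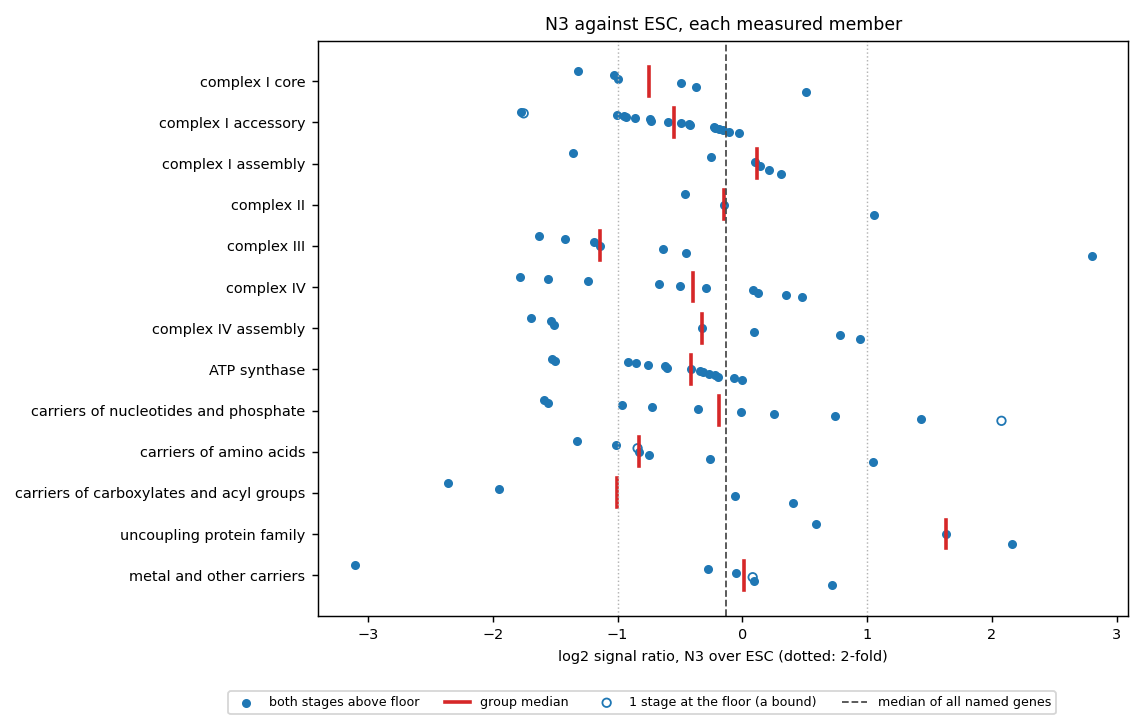
Log2 signal ratio of N3 over ESC (horizontal axis) for each measured member in rows by role, with filled points where both stages lay above the floor, open points for bounds, red bars for group medians and a dashed line at the median of all named genes (-0.13). On the brightest probe set, shown here, all complex I accessory and ATP synthase genes lie below 0 at this scaling. Under quantile normalisation 14 of 18 and 11 of 15 do. The carriers spread from SLC25A39 at the far left to SLC25A27 at the right.

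The carriers had no common direction. Of 30 measured in N3 against ESC, 7 were at least 2-fold lower in N3 (16.4% of all genes) and 5 at least 2-fold higher (17.2%). Their median log2 ratio was -0.16, beside -0.46 for the 72 genes of oxidative phosphorylation. The carriers that serve ATP synthase directly were among the lower ones. SLC25A3, the phosphate carrier, read 16427 (ESC), 8692 (EB), 9283 (N1), 4940 (N2) and 5446 (N3), 3.02-fold lower in N3. SLC25A5, the adenine nucleotide carrier of dividing cells, read 17334 (ESC), 13554 (EB), 11016 (N1), 6607 (N2) and 5886 (N3), 2.95-fold lower. SLC25A4, the adenine nucleotide carrier known from heart, muscle and brain, was level on its brightest probe set, at 2976 in N3 against 3001 in ESC. Its other probe sets had log2 ratios of -1.16 and -0.93. SLC25A6 was not analysed here.

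The lowest ratio of all members was that of SLC25A39, which imports glutathione into mitochondria. It read 3099 (ESC), 863 (EB), 733 (N1), 247 (N2) and 360 (N3), 8.61-fold lower in N3 than in ESC, and had the widest range of any member above the floor throughout. SLC25A40, its close relative, read 500 in N3 against 605 in ESC, and was highest in N1 at 978. SLC25A21, the carrier of oxodicarboxylates, read 1058 (ESC), 564 (EB), 422 (N1), 275 (N2) and 207 (N3), 5.12-fold lower. SLC25A10, the dicarboxylate carrier, read 509 (ESC), 333 (EB), 303 (N1), 84.1 (N2) and 132 (N3), 3.87-fold lower. Each of SLC25A39, SLC25A21 and SLC25A10 was highest in ESC. The citrate carrier SLC25A1 differed by less than 2-fold between N3 and ESC, at 2296 against 2396. So did the oxoglutarate carrier SLC25A11 on its brightest probe set, at 1312 against 990. Its other probe set was lower in N3, at 599 against 1286 in ESC, a log2 ratio of -1.10.

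Among carriers of amino acids, SLC25A13, the aspartate and glutamate carrier of the malate shuttle, read 2058 (ESC), 2684 (EB), 1724 (N1), 1126 (N2) and 820 (N3), 2.51-fold lower in N3. SLC25A38, the glycine carrier that feeds heme synthesis, was 2.02-fold lower, at 517 in N3 against 1044 in ESC. SLC25A29, which carries basic amino acids, read 763 (ESC), 781 (EB), 1470 (N1), 1450 (N2) and 1575 (N3), 2.06-fold higher in N3. SLC25A22, a glutamate carrier, read 889 in N3 against 1067 in ESC and was lowest in N1 at 501. SLC25A12 and SLC25A20 were not analysed here.

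The members of the uncoupling protein family stood at the other end, with all 3 measured higher in N3 than in ESC under every scaling tried. Of these, SLC25A30 was less than 2-fold higher, at 217 in N3 against 144 in ESC. Its other probe set lay below the floor at both stages. SLC25A27 and SLC25A14 encode the uncoupling proteins best known from the brain. SLC25A27 read 215 (ESC), 552 (EB), 757 (N1), 990 (N2) and 965 (N3), 4.48-fold higher in N3 than in ESC. Its other 2 probe sets gave log2 ratios of 1.37 and at least 1.15 in N3 over ESC, in the same direction as the 2.16 of the brightest. SLC25A14 has 1 probe set and read 110 (ESC), 140 (EB), 317 (N1), 293 (N2) and 342 (N3), 3.10-fold higher in N3, from an ESC level close to the floor. The 8 neuronal markers had a summed signal of 10923 (ESC), 4737 (EB), 22927 (N1), 39028 (N2) and 67366 (N3). Without SYT1, a step chosen after seeing the values, the sums were 6747 (ESC), 4408 (EB), 22397 (N1), 37260 (N2) and 64381 (N3). The part of neurons in the SLC25A27 and SLC25A14 signals was not tested. UCP2, which is no member by its symbol, went the other way, at 2831 in N3 against 4467 in ESC, and UCP1 and UCP3 lay below the floor at every stage.

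SLC25A36, a carrier of pyrimidine nucleotides, alternated: 1797 (ESC), 1694 (EB), 4276 (N1), 1619 (N2) and 4837 (N3). Its N1 and N3 signals were at least 2-fold above the stage before, and its N2 signal was 2.64-fold lower than in N1. It was low in ESC, EB and N2, whose actin 3' to 5' ratios were 1.73, 15.2 and 25.2, the lowest and the 2 highest. The part of RNA quality in this course was not tested. A second probe set did not alternate, at 936 (ESC), 1247 (EB), 2038 (N1), 2439 (N2) and 2293 (N3), and both probe sets were higher in N3 than in ESC, with log2 ratios of 1.43 and 1.29. The iron importer SLC25A37 was within 1.52-fold over all stages on its brightest probe set. SLC25A46, an outer membrane protein of mitochondrial shape, was the steadiest member, within 1.14-fold.

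SLC25A17 showed by far the widest swing. It belongs to the SLC25 family but carries cofactors across the peroxisome membrane. Its brightest probe set read 5.50 (ESC), 8893 (EB), 14589 (N1), 4046 (N2) and 422 (N3). It was at least 88.9-fold higher in EB than in ESC, and 9.59-fold lower in N3 than in N2. Another of its probe sets was above the floor in EB and N1 alone, at 306 in EB and 336 in N1, and the remaining one stayed between 104 and 181. FGB, a fibrinogen chain made in liver, read 3.48 (ESC), 26301 (EB), 15461 (N1), 3222 (N2) and 71.2 (N3). It was also bright at the middle stages, but fell from EB to N1, where SLC25A17 rose. Of the 6 liver-like endoderm markers, 4 were at least 2-fold higher in EB than in ESC (12.1% of all genes). AFP, another of the 6, went the other way, at 601 in EB against 991 in ESC. The part of liver-like cells in the SLC25A17 signal was not tested, nor was which transcript its brightest probe set detects.

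**Figure D3:**
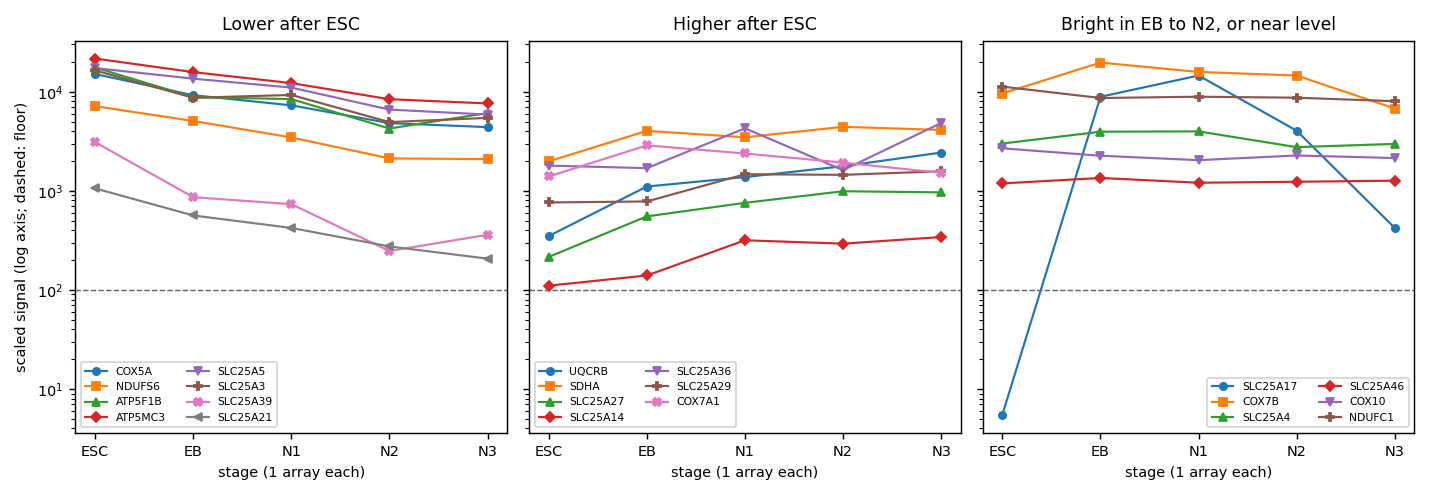
Scaled signal (vertical log axis, dashed line at the floor of 100) at each stage (1 array each) for 21 members in 3 panels: lower after ESC, higher after ESC, and bright at the middle stages or near level. COX5A, ATP5MC3 and SLC25A21 step down at each stage, UQCRB and SLC25A27 lie lowest in ESC, and SLC25A17 peaks in N1 at 14589.

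Among the steps between neighbouring stages, the median of the members lay farthest from that of all genes in N2 against N1. In EB against ESC, 6 of 101 measured members were at least 2-fold higher (12.1% of all genes) and 5 at least 2-fold lower (11.8% of all genes). The higher ones were SLC25A17, UQCRB, SLC25A27, COX7A1, COX7B and SDHA, and the lower ones SLC25A39, NDUFV3, COX15, COX8A and UQCRC2. The median log2 ratio was -0.05 for members and -0.06 for all genes, and 54 members (53.5%) were lower in EB, where 53.2% of all genes were. With equal medians as the scaling, the higher members numbered 14 and the lower ones 3.

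In N1 against EB, SLC25A36 and SLC25A14 were at least 2-fold higher, 2 of 98 members (5.15% of all genes), and 0 were at least 2-fold lower (2.2% of all genes). With the hybridisation controls as the scaling, 8 were at least 2-fold higher. In all, 58 members (59.2%) were lower in N1, where 51.8% of all genes were. The median was -0.14 for members and -0.02 for all genes, and this difference changed sign under quantile normalisation.

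In N2 against N1, 6 of 100 members were at least 2-fold lower (6.53% of all genes) and 0 at least 2-fold higher (5.06% of all genes). The 6 were SLC25A17, SLC25A10, SLC25A39, NDUFA13, UQCRC2 and SLC25A36. Few passed the threshold, but 77 of the 100 (77%) had a lower signal in N2, where 52.8% of all genes had, and the median log2 ratio was -0.24 beside -0.04 for all genes. Lower signals in N2 were seen in 17 of 18 complex I accessory subunits, 6 of 7 complex III subunits and 11 of 15 ATP synthase genes, and in at least 15, 5 and 10 of them under each other scaling. N2 had the highest actin and GAPDH 3' to 5' ratios. With the hybridisation controls as the scaling, 38 members were at least 2-fold lower in N2, and the median of all genes was then -0.57.

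In N3 against N2, 2 of 102 members, SLC25A36 and NDUFA13, were at least 2-fold higher (4.78% of all genes). SLC25A17 and COX7B were at least 2-fold lower (2 members; 2.19% of all genes). The medians were -0.05 for members and -0.02 for all genes, and 57 members (55.9%) were lower in N3, where 52.1% of all genes were.

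With the EB array set aside, chosen after seeing the data, N1 had 5 members at least 2-fold higher than ESC (13.2% of all genes) and 10 at least 2-fold lower (11% of all genes), of 102. In all, 62 members (60.8%) were lower in N1 than in ESC, where 54.3% of all genes were. With the N2 array set aside, N3 had 0 members at least 2-fold higher than N1 (8.42% of all genes) and 7 at least 2-fold lower (6.67% of all genes), of 103. In that comparison 77 of 103 members (74.8%) were lower in N3 than in N1, where 54.5% of all genes were. The actin ratios of that pair were 8.63 in N3 and 5.43 in N1.

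**Figure D4:**
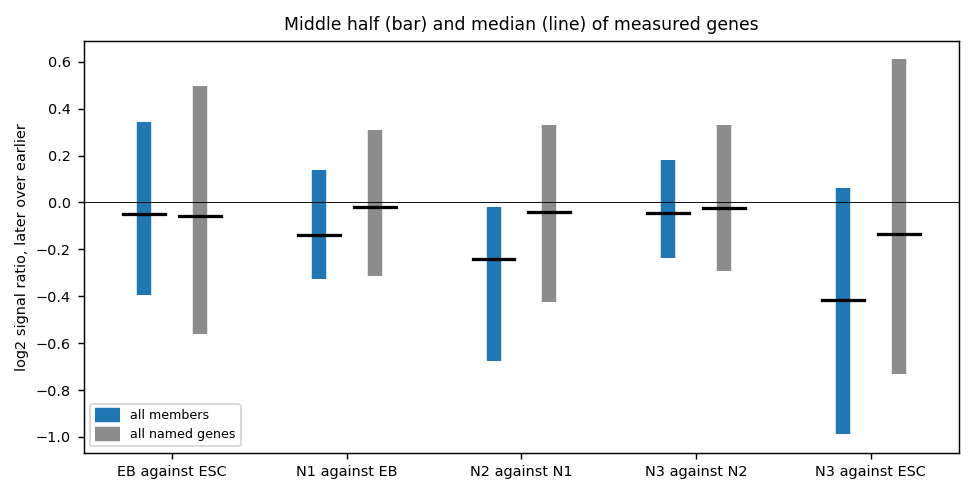
Log2 signal ratio of the later over the earlier stage (vertical axis) in 5 comparisons, as the median (line) and the range from the lower to the upper quartile (bar) of the measured members, in blue, and of all named genes, in grey. The member median lies below that of all genes in N2 against N1 (-0.24 and -0.04) and in N3 against ESC (-0.42 and -0.13), and close to it in EB against ESC (-0.05 and -0.06).

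A check on the ratios came from genes with several probe sets, the only technical spread the arrays offered. For N3 against ESC, 43 members had 2 measured probe sets, of which 4 were at least 2-fold higher on the brightest (19.8% of all such genes) and 14 at least 2-fold lower (15.5%). Over the 43, the SD between the log2 ratios of the 2 brightest, divided by the square root of 2, was 1.01, beside 0.82 for all genes. Of these 18 members at least 2-fold apart by the brightest probe set, the next one had the same direction in 12 (66.7%, beside 80% for all genes) and was itself at least 2-fold apart in 5. Of the 14 lower ones, 8 were also lower on the next probe set, beside 610 of 716 among all genes. The median log2 ratio of the 43 was -0.42 on the brightest and -0.06 on the next, where all genes with 2 measured probe sets had -0.02 and -0.26. On the next probe set, 10 of the 43 were at least 2-fold lower (22.5% of all genes) and 7 at least 2-fold higher (14.5% of all genes).

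The disagreement touched 6 of the 14 lower genes. COX5A had a log2 ratio of -1.78 on its brightest probe set and 1.70 and 1.15 on its others, whose ESC signals were 161 and 114. NDUFS6 had -1.78 on the brightest and 0.56 and 0.09 on the others. ATP5F1B had -1.52 and 1.31, COX17 -1.51 and 0.49, UQCR11 -1.42 and 0.25, and NDUFV3 a bound in each direction. Less than 2-fold apart on the brightest, ATP5F1E, the epsilon subunit, had -0.60 and 3.74 and was named after its values were seen. Other genes held their direction on the next probe set, among them SLC25A13 (-1.33 and -2.71), UQCRC1 (-1.14 and -1.88), COX20 (-1.69 and -1.12), NDUFV2 (-1.03 and -0.80) and SLC25A36 (1.43 and 1.29). UQCRC1 has a further probe set with the opposite direction, at 0.95. Members with 1 probe set, such as SLC25A39, SLC25A21, SLC25A5, SDHA and ATP5MC3, have no such check.

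**Figure D5:**
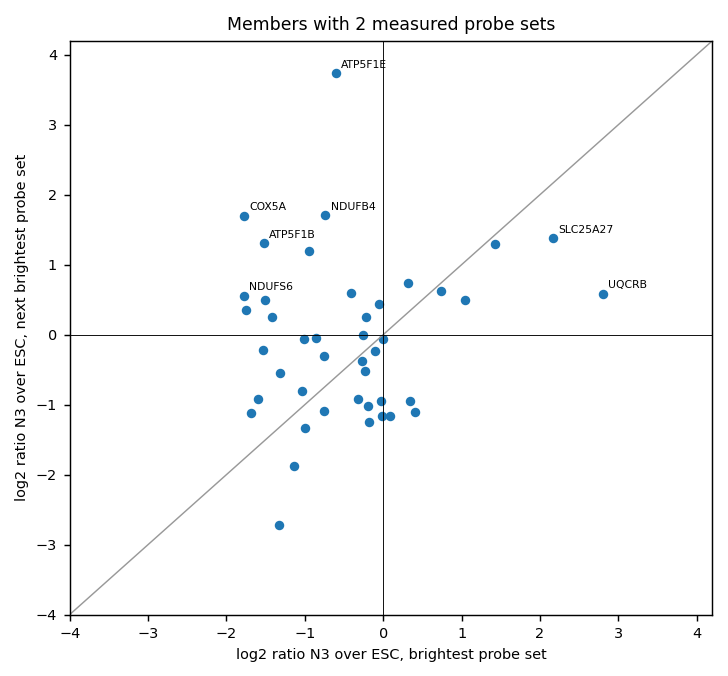
Log2 ratio of N3 over ESC on the next brightest probe set (vertical axis) against the brightest (horizontal axis) for the 43 members with 2 measured probe sets, with a line of equality. Most points with a ratio below -1 on the brightest probe set lie above the line, and 6 of these 14, COX5A, NDUFS6, ATP5F1B, COX17, UQCR11 and NDUFV3, lie above 0 on the next one.

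Of 9 measured genes of the citric acid cycle, 3 were at least 2-fold lower in N3 than in ESC (16.4% of all genes). At least 2-fold higher was 1 (17.2% of all genes), and the median log2 ratio was -0.33. MDH2, malate dehydrogenase, read 2622 in N3 against 9430 in ESC, 3.60-fold lower. DLD, a subunit shared by several dehydrogenases, was 5.69-fold lower and IDH3B, an isocitrate dehydrogenase subunit, 2.99-fold lower. FH, fumarate hydratase, read 3500 in N3 against 1609 in ESC, 2.17-fold higher.

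Of 7 measured genes for the entry of pyruvate, 0 were at least 2-fold apart between N3 and ESC, with a median log2 ratio of 0.11. Of 14 measured genes for other assembly factors and uncoupling, 3 were at least 2-fold lower in N3 (16.4% of all genes). These were ACAD9 and NUBPL, which help to build complex I, and BCS1L, which inserts the Rieske protein into complex III. Of 10 measured genes for mitochondrial DNA and biogenesis, 1 was at least 2-fold lower in N3 (16.4% of all genes) and 1 at least 2-fold higher (17.2%). The median log2 ratio was -0.75. TFAM, which packages and transcribes mitochondrial DNA, read 4475 (ESC), 3746 (EB), 3136 (N1), 2592 (N2) and 2246 (N3), 1.99-fold lower in N3 than in ESC. PPARGC1A, a coactivator that raises mitochondrial content, read 49.3 (ESC), 153 (EB), 69.2 (N1), 149 (N2) and 299 (N3), at least 2.99-fold higher in N3. GABPA, a transcription factor of respiratory chain genes, read 112 in N3 against 234 in ESC, 2.09-fold lower.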

How the data were processed

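The authors deposited array intensities on a linear scale, 1 value per probe set, for 5 arrays with 1 per stage. Per the submitters' processing notes they were made with GCOS 1.0; for the algorithm and the scaling target the sources used here give nothing. The trimmed mean was already 199.1 to 199.3 on every array. Over the probe sets other than 158 controls, a 2% trimmed mean was set to 500 on each array. Values were then floored at 100 and taken to log2. Of 76 reporter and tag control probe sets, 0 to 6 per array reached the floor.

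Of 52865 probe sets, 24969 had 1 gene symbol in the platform annotation of GEO (possibly out of date), 361 had several and 27535 were not listed. The probe set of highest mean log2 signal stands for its gene. The 108 members have 179 probe sets, 49 members having more than 1, and 12 probe sets naming a member among several symbols were left out. By Entrez identifier 106 members matched RefSeq. No coordinates are given because no build is named.

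The 5 comparisons were each stage against the one before it and N3 against ESC. They are ratios with no test. The members and lists were chosen with earlier results of these data known. Named members are up to 6 each way per comparison with the largest ratio among those at least 2-fold apart and at 200 or more on the brighter array, the 6 widest and 6 narrowest ranges, and a list of subunits and carriers given whatever their value. Members outside this rule complete a count or show a check, and were named after their values were seen. Ratios and counts were tested on simulated data. Alternatives were other scalings, floors, probe set choices and thresholds. Python 3.11.15, numpy 2.4.6, pandas 2.3.3, scipy 1.17.1 and matplotlib 3.10.9 were used.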

Additional observations from a re-analysis of the deposited data

How the results depend on the processing

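Of 130 counts recomputed, 83 stayed within 1.5 times their first value. A median difference or ratio was counted as the same if it shifted by less than the SD between probe sets. That SD was 0.43 to 0.82 in log2 by comparison. Sign changes were counted as reversals only from median differences of at least 0.1 and ratios of at least 2-fold. Of 55 median differences 53 stayed the same and 2 reversed. Of 347 ratios of named members 315 stayed the same, 29 moved and 3 reversed. Some smaller median differences changed sign uncounted. EB against ESC went from 0.0086 to -0.0448 with a floor of 200. N3 against N2 went from -0.0209 to 0.0142 under quantile normalisation. In N3 against ESC, both counts stayed within 1.5 times under every scaling and floor and under the probe set choices planned, and the threshold moved them. A reversal was counted for the member minus all-gene median in N1 against EB (0.0040 under quantile normalisation, -0.12 as reported). Another was the same difference in N3 against ESC on the next brightest probe set (0.20, beside -0.39 on the brightest of the same genes). With the median signal of the probe sets at each stage, UQCRB (-0.36), COX5A (1.70) and NDUFS6 (0.56) reversed in N3 against ESC. Counts below are of members at least 2-fold higher or lower. With equal medians, EB against ESC had 14 higher and 3 lower, N1 against EB 0 higher and 4 lower, and N2 against N1 1 higher. With quantile normalisation, N1 against EB had 1 higher and 1 lower. With the hybridisation controls, N1 against EB had 8 higher, N2 against N1 38 lower, and N3 against N2 5 higher and 1 lower. With a floor of 50, and with no floor, EB against ESC had 8 lower, N2 against N1 1 higher and N3 against N2 4 lower. With a floor of 200, EB against ESC had 3 lower and N1 against EB 1 higher. With that median signal, EB against ESC had 8 lower, N1 against EB 4 higher, and N3 against N2 1 higher and 1 lower. Leaving out probe sets that may bind related transcripts, N3 against N2 had 4 higher and 1 lower. At 1.5-fold, the higher and lower counts were 13 and 17 in EB against ESC, 8 and 4 in N1 against EB, 2 and 31 in N2 against N1, 6 and 4 in N3 against N2, and 12 and 44 in N3 against ESC. At 4-fold, they were 1 and 0 in EB against ESC, 0 higher in N1 against EB, 0 lower in N2 against N1, 0 and 1 in N3 against N2, and 3 and 2 in N3 against ESC. N1 against ESC, added after seeing the data, had 10 lower. Among the 43 members with 2 measured probe sets, N3 against ESC had 4 higher and 14 lower on the brightest and 10 lower on the next. The cause of these shifts was not tested.

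Some scalings moved the median of all genes by over 0.1. Equal medians gave 0.41 in EB against ESC, -0.37 in N1 against EB and -0.13 in N3 against N2. The hybridisation controls gave 0.06 in EB against ESC, 0.41 in N1 against EB, -0.57 in N2 against N1, 0.17 in N3 against N2 and 0.04 in N3 against ESC. The share of higher genes among all genes at least 2-fold apart was 50.8%, 70.1%, 43.7%, 68.6% and 51.2% in the 5 comparisons in order, N3 against ESC last. It became 80.1%, 24.8%, 54.8% and 54.7% in the first 4 with equal medians, 52.1% in N1 against EB with quantile normalisation, and 95.2%, 6.85%, 86.3% and 63.6% in the last 4 with the hybridisation controls. No paired analysis was possible because each stage has 1 array and no test was made. Signals near the floor, as for COX6A2, COX15 and NDUFA4L2, limit their ratios.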

Other observations

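Genes of glycolysis and of the response to low oxygen, which supply and regulate ATP made outside mitochondria, had no common direction in N3 against ESC. Of 13 measured, 4 were at least 2-fold higher in N3 than in ESC (17.2% of all genes) and 1 at least 2-fold lower (16.4%). They had a median log2 ratio of -0.06. That median was 0.04 to 0.14 under 3 of the 4 other scalings. In N3 against N2, 12 of the 13 were higher (median 0.48), and at least 10 under each other scaling. In N2 against N1, 11 were higher (median 0.24), but 2 with the hybridisation controls as the scaling (median -0.34). In N1 against ESC, 9 of the 13 were lower (median -0.71), and at least 7 under each other scaling. The higher ones were ALDOC, the brain aldolase, at 3797 in N3 against 1255 in ESC, PFKP, a phosphofructokinase, at 2194 in N3 against 655 in ESC, PFKFB3, which raises phosphofructokinase activity, at 494 in N3 against 131 in ESC, and SLC2A1, a glucose transporter, at 11732 in N3 against 4235 in ESC. SLC2A3, the glucose transporter known from neurons, read 22574 (ESC), 15182 (EB), 7774 (N1), 7074 (N2) and 10837 (N3), lower in N3 than in ESC. LDHA, lactate dehydrogenase, was at 15258 in N3 against 17186 in ESC.

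The array carries 6 further probe sets with a mitochondrial label in their names, which the annotation table used here does not pair with a gene. All 6 were lower in EB than in ESC (53.2% of all genes), by 1.46-fold to 5.05-fold. In N3 against ESC, 5 of the 6 were lower (56% of all genes). The steps between differed: 1 was lower in N1 than in EB (51.8% of all genes) and 1 in N2 than in N1 (52.8%). In N3 against N2, 5 were lower (52.1% of all genes). EB was the lowest stage for 5 of them and ESC the highest for 4.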
